A study of Rattus norvegicus with 6 samples.

Results

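Collagens are the chains of the extracellular matrix whose genes are named Col, a type number, the letter a and a chain number. All non-control probes with such a gene name were taken from the array files, which gave 35 collagen genes measured by 46 probes, of 17967 genes and 30367 probes in all. The names alone chose them, not any signal. By chain type, 10 genes encode fibrillar collagens (12 probes), 5 encode the type IV collagen of basement membranes (6 probes), 2 encode the multiplexins XV and XVIII (2 probes) and 18 encode other types (26 probes). RNA came from the hippocampus of male Wistar rats. The control group, aged 12 weeks in the labels, was set beside rats whose common carotid arteries had both been tied off permanently under isoflurane, at day 21, day 35, day 45, day 55 and day 70, with ages given as 13, 14, 15, 16 and 17 weeks. These labelled ages rise by less than the labelled days would add to the control's age. Each group was 1 array of pooled RNA, so the spread between animals is unknown and all differences are described without a test. The labels state neither how many rats made up a pool nor whether controls were sham-operated.

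A collagen chain repeats a glycine at short regular steps, which lets the chains wind around each other into a rigid helix. Fibrillar collagens I, III, V and XI assemble into the banded fibrils of connective tissue, and in the brain types I and III are found mainly in the meninges and around larger vessels. Type IV collagen forms the network of the basement membrane that surrounds every brain capillary, and types XV and XVIII lie at the outer face of such membranes. FACIT collagens such as IX, XIV and XIX attach to the surface of fibrils, and type VI forms beaded filaments between cells and basement membranes.

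The array reads each gene through probes of 60 bases, and several carry the features of collagen genes themselves. One probe of Col4a1, which encodes a chain of type IV collagen, lies in the helix at chr16:83146135-83146194 in rn4, plus strand. It is shown because the glycine repeat is visible in it, with the GG of each glycine codon in capitals, present at 6 of 6 positions of the repeat.

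Col4a1: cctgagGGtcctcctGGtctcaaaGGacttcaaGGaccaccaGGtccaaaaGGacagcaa

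The probe of Col3a1 (chr9:44317465-44317524 in rn4, plus strand) and 1 of the 2 probes of Col1a1 (chr10:83637956-83638015 in rn4, plus strand) read a stretch in which these fibrillar collagens resemble each other. They are shown because this Col1a1 probe, which ends in the stop codon TAA, gave a smaller day 21 difference than the other. Capitals mark the bases that the probes share, 21 of the 26 that overlap, or 80.8%.

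Col1a1: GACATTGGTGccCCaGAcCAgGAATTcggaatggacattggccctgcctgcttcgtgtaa
Col3a1: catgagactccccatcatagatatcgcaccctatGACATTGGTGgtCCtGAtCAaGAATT

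Values below are scaled signals, which are processed spot intensities brought to the control array's scale by the 75th percentile of each array. These percentiles ranged from 1240 to 1500.4 intensity units before scaling, and 74.5% to 80.2% of spots were well above background. The control, day 21 and day 35 arrays shared 1 slide, and the day 45, day 55 and day 70 arrays shared another, so a late day and its slide cannot be told apart in a comparison with control. A probe's signal depends on its own sequence, so levels are compared between arrays and not between genes. From 1390 probes printed 10 times, the technical SD of a log2 difference between 2 single spots of the same array was taken. It was 0.36 below a signal of 50, 0.14 between 50 and 100, 0.10 between 100 and 200, and 0.09 between 200 and 500. No collagen probe was printed 10 times, and this SD holds no spread between arrays, slides or animals. The differences described below are between arrays, so their technical spread is not known from it. All 10 hippocampal neuron markers checked, among them Prox1 and Neurod6, were above background on all 6 arrays.

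Of the 35 collagen genes, 25 were well above background on all 6 arrays, 6 on some arrays (Col6a3, Col8a1, Col10a1, Col17a1, Col22a1 and Col24a1) and 4 on none (Col4a3, Col4a4, Col8a2 and Col13a1). None was saturated. By class, the genes above background on all arrays were 9 of 10 fibrillar genes, both multiplexins, 3 of 5 type IV genes and 11 of 18 of the other types.

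**Figure D1:**
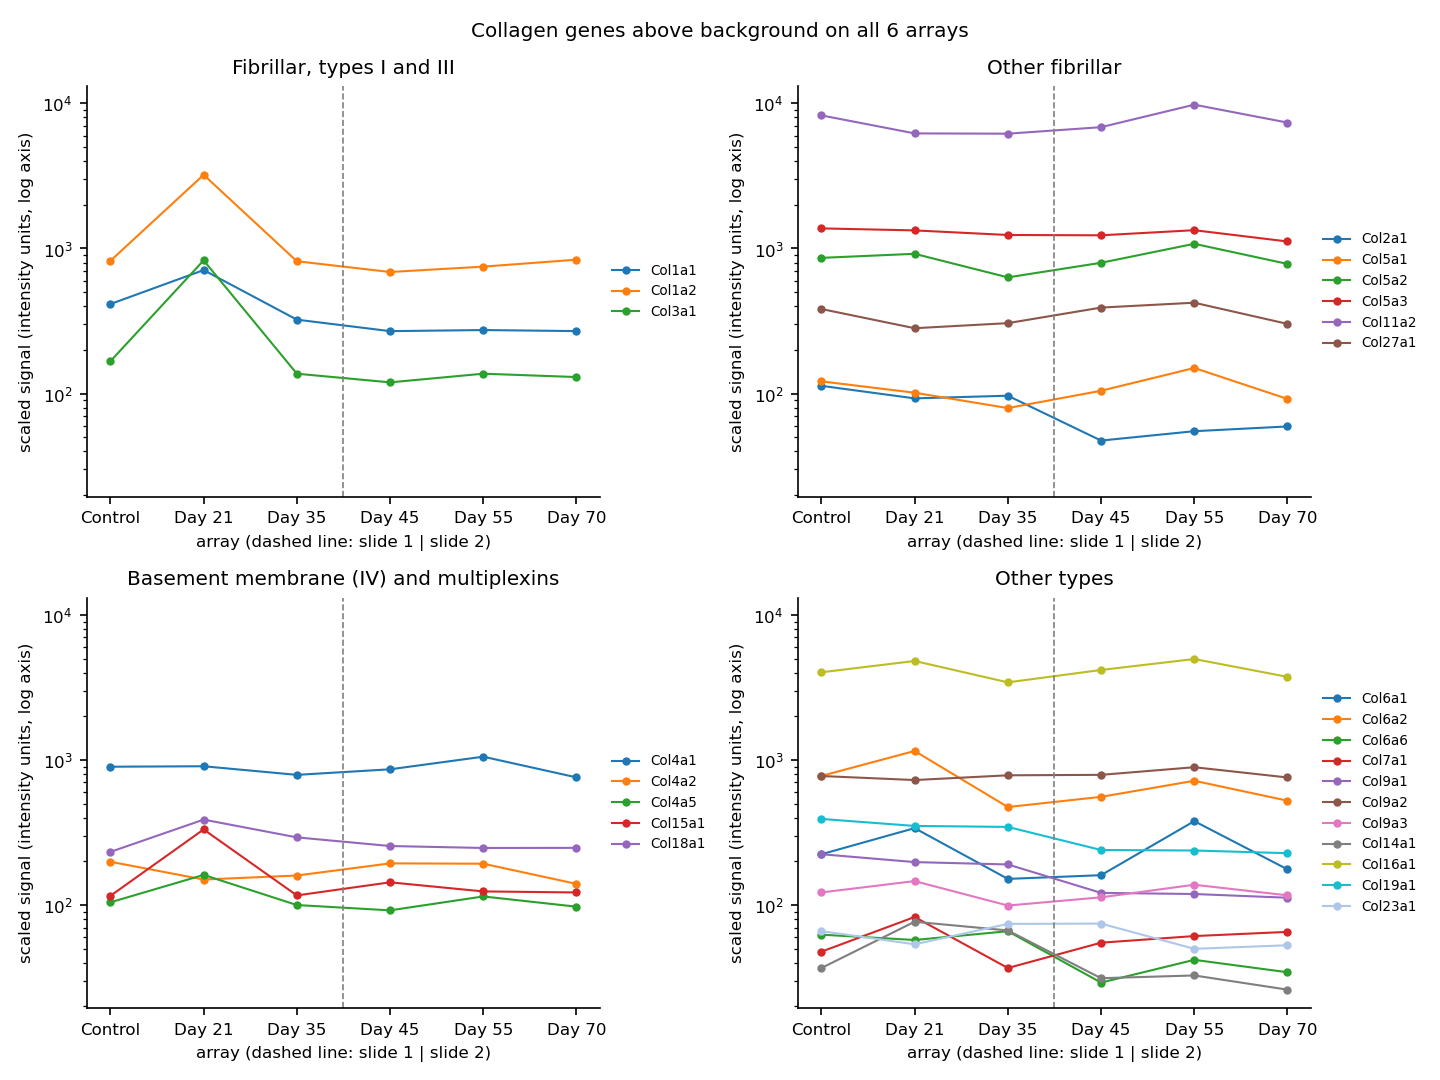
Scaled signal (intensity units, log axis) of the 25 collagen genes above background on all 6 arrays, 1 point per array, with the change of slide as a dashed line. Col1a2 and Col3a1 stood highest at day 21, at 3217 and 828, while Col4a1 stayed between 758.5 and 1053.

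The largest differences from control lay at day 21. There, 5 of the 30 collagen genes measured were higher by at least 2-fold and 0 were lower, whereas over all genes 3.61% were higher and 1.88% were lower. The 5 were Col1a2, Col3a1, Col8a1, Col14a1 and Col15a1. With the normexp background correction, which adds an offset of 50 to every signal, 3 were higher, Col1a2, Col3a1 and Col15a1, beside 1.72% of all genes. Fewer cells of a type and less RNA per cell cannot be told apart in such bulk RNA, in this or any later comparison.

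Col1a2 and Col3a1 encode a chain of type I collagen and the chain of type III collagen, the main fibrillar collagens of soft connective tissue. The scaled signal of Col1a2 was 821.5 in control, 3217 at day 21, 816 at day 35, 688 at day 45, 749 at day 55 and 837 at day 70. The day 21 array was thus 3.92-fold above control (log2 difference 1.97) and stood apart from the other 5 arrays, which lay close together. Col3a1 read 167 in control, 828 at day 21, 137 at day 35, 119 at day 45, 137 at day 55 and 129.9 at day 70. Its day 21 signal was 4.96-fold above control (log2 2.31), and each later array was below control. The probe of Col1a2 lies at chr4:29428206-29428265 in rn4.

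Col1a1, the partner chain of Col1a2 in type I collagen, was read by 2 probes that disagreed in size. The coding-end probe printed above read 414 in control, 709.6 at day 21, 323 at day 35, 269 at day 45, 274 at day 55 and 269 at day 70. The other, whose start lies 1304 bases downstream in the transcript (chr10:83639260-83639319), read 243 in control, 1176.5 at day 21, 179 at day 35, 138.5 at day 45, 177 at day 55 and 168 at day 70. Both were highest at day 21 and below control on every later array. The day 21 difference was 1.72-fold (log2 0.78) on the coding-end probe, which is the brighter by its mean and stands for the gene, and 4.84-fold (log2 2.27) on the downstream probe. The latter lies close to the values of Col1a2 and Col3a1. Whether transcripts of related collagens bind the coding-end probe of Col1a1 was not tested.

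**Figure D2:**
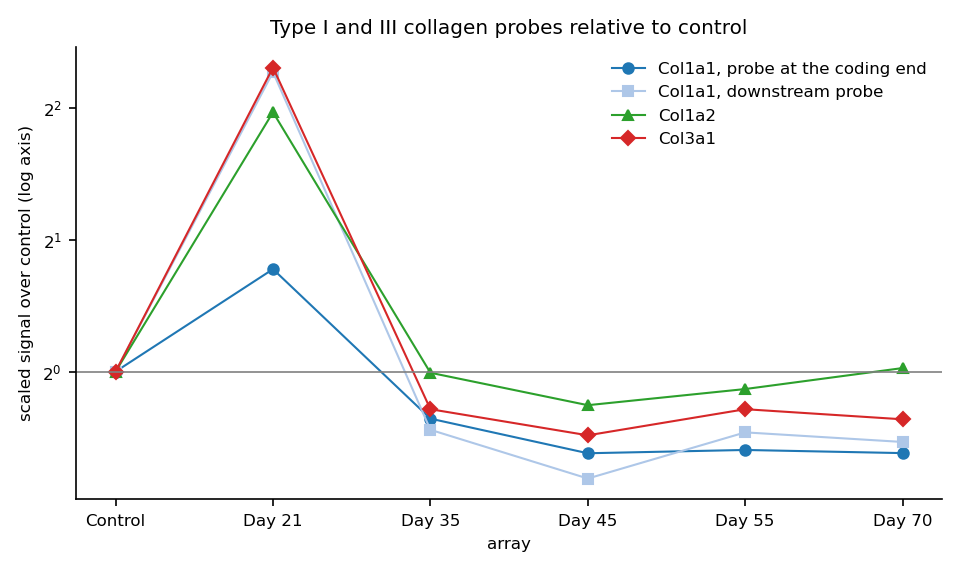
Scaled signal over control (log axis) on each array for the 2 Col1a1 probes, Col1a2 and Col3a1. At day 21 the coding-end probe of Col1a1 was 1.72-fold above control and the other 3 probes were 3.92-fold to 4.96-fold above it.

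The remaining fibrillar genes did not share the day 21 difference. Col5a2, a chain of type V collagen, read 861 in control and 919 at day 21, a log2 difference of 0.09. Col2a1, Col5a1, Col5a3, Col11a2 and Col27a1 were below control at day 21, with log2 differences between -0.44 and -0.05, and Col24a1 was lower by at least 1.41-fold. The brightest fibrillar probe, one of 2 for Col11a2, read 8268 in control, 6211 at day 21, 6182 at day 35, 6855 at day 45, 9798 at day 55 and 7373 at day 70. Col11a2 encodes a chain of type XI collagen, which lies in the core of thin fibrils. As a class, 4 of 10 fibrillar genes were above control at day 21 and 6 below, with a median difference of -0.15 beside -0.07 over all 14222 genes measured. Of those 14222 genes, 5656 were above control and 8566 below. The class median thus hides the type I and III genes, which lie at its upper end, up to 2.31.

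Type IV collagen is the collagen network of vascular basement membranes. Of the 5 type IV genes taken by name, Col4a1, Col4a2 and Col4a5 were above background on all arrays and stayed within 2-fold of control at all 5 days. The most abundant chains of this network come from Col4a1 and Col4a2, which sit head to head on chromosome 16 with 76 bases between their annotated starts in assembly GRCr8. That shared stretch, chr16:84885521-84885596 in GRCr8 (RefSeq), is printed because both genes start from it, with the motif CCGCCC in capitals.

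Col4a1 and Col4a2: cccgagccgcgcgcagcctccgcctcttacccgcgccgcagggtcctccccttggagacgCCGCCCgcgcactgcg

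Col4a1 read 898 in control, 905 at day 21, 789 at day 35, 862 at day 45, 1053 at day 55 and 758.5 at day 70 on its brighter probe (chr16:83157776-83157835, rn4). The helix probe printed above was dim, at 40.6 in control, 37.8 at day 21, 33.8 at day 35, 22.5 at day 45, 29.0 at day 55 and 29.9 at day 70. Col4a2 (chr16:82900301-82900360) read 199 in control, 149.9 at day 21, 159.7 at day 35, 194 at day 45, 193 at day 55 and 139.9 at day 70. The furthest difference of these genes from control on the brighter probes was -0.51, for Col4a2 at day 70. The pair did not move in step at day 21, where the log2 difference was 0.01 for Col4a1 and -0.41 for Col4a2.

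Col4a5, on chromosome X, encodes a chain found in specialised basement membranes such as that of the kidney glomerulus. It read 104 in control and 161 at day 21, and lay between 91.9 and 115 on the 4 later arrays, so that day 21 was the highest at 1.54-fold. Col4a3 and Col4a4, its partners in the glomerulus, were not well above background on any array, with signals of 3.3 to 11.4 and 9.5 to 21.1. Over the 3 type IV genes measured, the median difference was 0.01 at day 21, -0.19 at day 35, -0.06 at day 45, 0.14 at day 55 and -0.24 at day 70.

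The multiplexins differed from type IV. Col15a1, whose collagen bridges basement membranes and fibrils, read 116 in control, 332 at day 21, 116.5 at day 35, 143 at day 45, 124 at day 55 and 122 at day 70 (chr5:63930574-63930633, rn4). Day 21 was 2.87-fold above control, and the other arrays lay within 1.24-fold of it. Col18a1, the source of the fragment endostatin, read 232 in control, 388 at day 21, 293 at day 35, 255 at day 45, 247 at day 55 and 248 at day 70. Day 21 was again the highest array, by 1.67-fold, short of the 2-fold threshold.

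Among the other types, Col14a1 and Col8a1 passed the threshold at day 21. Col14a1, a FACIT collagen that binds type I fibrils, read 36.8 in control, 76.7 at day 21, 66.8 at day 35, 31.3 at day 45, 32.7 at day 55 and 26.1 at day 70 (chr7:92032865-92032924). Unlike Col1a2 and Col3a1, it was also above control at day 35, by 1.81-fold (log2 0.86), beside 2.08-fold at day 21. A second Col14a1 probe was not above background on any array, and the mean of both probes gave a day 21 difference of -0.12. Col8a1, a network-forming short chain known from vessel walls, was above background only at day 21 and day 70. It read 43.8 at day 21, 19.6 at day 70 and 10.0 to 15.1 on the other 4 arrays, and was at least 2.75-fold higher at day 21 than in control. It entered that comparison only through its bright array, so it could be called only as higher.

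Col6a1 and Col6a2, which encode chains of type VI collagen, were high and low on the same arrays of slide 1. Col6a1 read 224 in control, 339 at day 21 and 151 at day 35, and Col6a2 read 776, 1153 and 474 on the same arrays. Day 21 was highest on that slide for both, at 1.51-fold and 1.49-fold above control, and day 35 was lowest. Col6a6, another type VI chain, read 62.5, 57.4 and 66.0 there and did not have that order. Their probes lie 126.7 kb apart on chromosome 20 with 0 coding genes between them in GRCr8. Col7a1, the anchoring fibril collagen, was also highest at day 21, with 82.7 beside 47.7 in control, or 1.73-fold.

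Against day 21, the day 35 array of the same slide had 8 of 27 collagen genes lower by at least 2-fold and 0 higher, beside 4.51% lower and 1.05% higher over all genes. The 8 were Col1a1, Col1a2, Col3a1, Col6a1, Col6a2, Col7a1, Col8a1 and Col15a1. Col3a1 was 6.04-fold lower at day 35 than at day 21, Col1a2 3.94-fold and Col15a1 2.85-fold. Since both arrays were on 1 slide, the slide does not enter these values. The arrays of the other slide were also lower than day 21, and these comparisons share the day 21 array. At day 45, 8 of 26 collagens were lower by at least 2-fold than at day 21, beside 8.08% of all genes, at day 55 6 of 29, beside 7.03%, and at day 70 7 of 27, beside 8.33%. None of them was higher, beside 0.603%, 0.646% and 0.688% of all genes. Col1a1, Col1a2, Col3a1, Col8a1, Col14a1 and Col15a1 were lower than day 21 on all 3 late arrays. Col8a1 was below background at day 35, day 45 and day 55, so there it could be called only as lower.

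Against control, day 35 had 0 of 30 collagen genes past 2-fold in either direction, with 0.478% of all genes higher and 1.14% lower. All 10 fibrillar genes were below control, as were 8264 of all 14230 genes measured. The fibrillar median was -0.34 beside -0.04 over all genes. Among the 10, Col1a2 lay at only -0.01. Col24a1 was above background in control but not at day 35, so it could only be called lower. The fibrillar median stayed below 0 at day 35 under every other scaling tried.

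Markers of other cells moved with the day 21 collagens, and their part in the differences was not tested. In the list for meninges and fibroblasts without collagens, 7 of 16 measured genes were higher by at least 2-fold at day 21. The 7 were Igfbp2, Aldh1a2, Asgr1, Igf2, Ogn, Slc6a13 and Slc22a6. In this list 0 were lower, and over all genes 3.61% were higher and 1.88% lower. Asgr1 was below background in control, so it could be called only as higher. The summed signal of the list was 9059 in control, 17855 at day 21, 9129 at day 35, 8964 at day 45, 8949 at day 55 and 9377 at day 70. It was thus high on the same array as Col1a2 and Col3a1 and close to control on the other arrays. Most of the day 21 rise of this sum came from Igf2, from 1704 to 5340, and Igfbp2, from 793 to 3828. All 16 measured genes of the list were above control at day 21, with a median log2 difference of 0.71. Dcn and Lum, fibroblast proteoglycans of the list, were at 1.10-fold and 1.27-fold, Dpt was not above background on any array, and Foxc1 had no probe by name.

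Choroid plexus markers followed another order. Their summed signal was 7744 in control, at least 72952 at day 21, 39057 at day 35, 7405 at day 45, 7332 at day 55 and 62750 at day 70, led by Ttr, the thyroid hormone carrier secreted by that tissue. The Ttr spot was saturated at day 21, so its 66526 there, and the sum, are lower limits. Ttr alone read 3784 in control, 33986 at day 35 and 56834 at day 70, so the sums at days 21, 35 and 70 are mostly Ttr. The median log2 difference of the list was 1.25 at day 21, 0.35 at day 35 and 0.88 at day 70. At day 21, 8 of 14 measured genes were higher by at least 2-fold and 0 lower, beside 3.61% and 1.88% of all genes. At day 35, 4 of 13 were higher and 0 lower, beside 0.478% and 1.14%. At day 70, 6 of 13 were higher and 1 lower, Clic6, beside 0.684% and 6.96%. At day 45, 0 of 10 were higher and 2 lower, Aqp1 and Clic6, beside 0.583% and 5.92%. At day 55, 1 of 10 was higher, Otx2, and 1 lower, Clic6, beside 0.666% and 5.03%. Several of these calls were bounds, among them Kcnj13 at day 21 and Clic6 at day 45. At day 35 and day 70, where this sum was high, Col1a2 differed from control by -0.01 and 0.03 and Col3a1 by -0.28 and -0.36. Col14a1, by contrast, was above control at day 35 and below it at day 70.

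Microglia and macrophage markers had a summed signal of 20116 in control, 56010 at day 21 and 17802 to 21456 at later days. Of these markers, 9 of 12 were higher by at least 2-fold at day 21, among them Cd68 and Trem2, beside 3.61% of all genes. Of 8 astrocyte markers, Vim and Gfap passed 2-fold at day 21, and the sum went from 99622 to 126001. Endothelial markers summed to 15260 in control and 14969 at day 21, with 0 of 12 higher by 2-fold and only Abcb1a lower. The median endothelial difference at day 21 was -0.31, with 4 of 12 above control, beside -0.07 over all genes. Pericyte and smooth muscle markers summed to 5056 and 5306, with 0 of 11 past 2-fold at day 21.

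**Figure D3:**
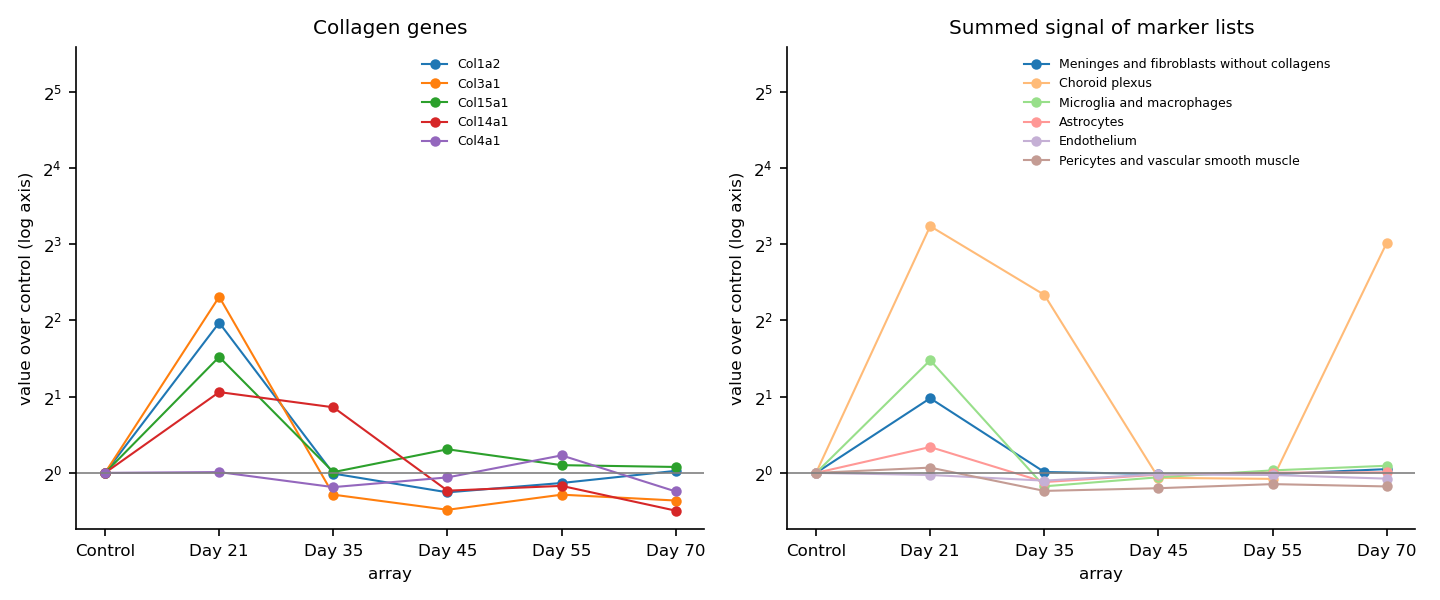
Scaled signal of 5 collagen genes (left) and summed signal of 6 marker lists (right) on each array, each over its control value (log axes). At day 21 the meningeal sum was 1.97 times and the choroid plexus sum at least 9.42 times control. The choroid plexus sum was again high at day 70, at 8.10 times, where Col1a2 and Col3a1 were not. On both arrays most of the choroid plexus sum was the signal of Ttr. Most of the day 21 rise of the meningeal sum came from Igf2 and Igfbp2.

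The genes that make, cut and bind collagen were read from lists of their own. Of the 18 measured genes for folding and modification in the endoplasmic reticulum, 16 were above control at day 21, beside 5656 of 14222 over all genes. The list median was 0.27 beside -0.07 over all genes, but only Fkbp14, a prolyl isomerase, passed 2-fold. It read 30.0 in control and 79.8 at day 21. Serpinh1, the collagen chaperone HSP47, read 1643 in control, 2466 at day 21, 1811 at day 35, 1565 at day 45, 1667 at day 55 and 1518.5 at day 70, so its day 21 difference was 0.59 on the log2 scale. The lysyl hydroxylases Plod1, Plod2 and Plod3 were at 1.48-fold, 1.39-fold and 1.36-fold, and the prolyl hydroxylases P4ha1 and P4ha2 at log2 0.32 and -0.17.

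Of 10 genes for procollagen cleavage and cross-linking, 1 passed 2-fold at day 21, Loxl2, a lysyl oxidase that cross-links collagen, at 44.0 in control and 131.8 at day 21. Pcolce, which enhances removal of the C-terminal propeptide, read 838 and 1614, or 1.93-fold. Lox itself was above background on 2 of 6 arrays and was not measured in this comparison. Over all genes, 3.61% were higher by at least 2-fold at day 21. Among 10 measured proteoglycans and glycoproteins of fibrils, 2 passed 2-fold at day 21. These were Fmod (fibromodulin), from 554 to 2343, and Ogn (osteoglycin), from 99.5 to 292. Dcn, Lum and Ogn belong to this list and to the meningeal one, so the lists are not separate readings.

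Of 6 measured collagen-degrading enzymes and their inhibitors, all 6 were above control at day 21 and 3 passed 2-fold, with a list median of 1.05. Over all genes, 5656 of 14222 were above control and 3.61% were higher by at least 2-fold. Timp1, an inhibitor of matrix metalloproteinases, went from 545.6 to 1412, Mmp14, a membrane-bound collagenase, from 634 to 1535, and Mmp2, a gelatinase, from 295 to 679. The collagenases Mmp8 and Mmp13 and the gelatinase Mmp9 were not above background on any array. Of 7 measured collagen receptors, 0 passed 2-fold at day 21, with Ddr1 at 1.53-fold and Itga11 lower, at 1.85-fold. The basement membrane partners of type IV also had 0 of 10 higher by 2-fold at day 21, with a median of 0.10. Within that list, Nid1 and Nid2, which link laminin to type IV collagen, were at 1.54-fold and 1.88-fold.

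At days 35 to 70, none of the genes for folding, cleavage, cross-linking or degradation passed 2-fold against control, and Itga11 was lower at day 70. Among the basement membrane partners, Lamc3 was lower at day 35, Lama3 was higher at day 45, and Lamc3 was lower at days 55 and 70. Both genes were above background on 1 array only, so each could be called in 1 direction only.

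On the second slide, the collagens past 2-fold were lower. At day 45, 2 of 29 genes measured were lower and 0 higher, beside 5.92% lower and 0.583% higher over all genes. At day 55, 1 of 30 was lower and 0 higher, beside 5.03% and 0.666%, and at day 70 0 of 30 were past 2-fold in either direction, beside 6.96% lower and 0.684% higher. The shares of lower collagens are near these backgrounds. With normexp, quantile normalization or the authors' deposited table, 0 collagens were lower by 2-fold at day 45 and at day 55. Over all genes, 0.789%, 2.33% and 1.10% were lower at day 45 under these settings in that order, and 0.539%, 3.01% and 1.24% at day 55.

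Col2a1, the chain of cartilage collagen, read 113 in control, 92.6 at day 21, 96.6 at day 35, 47.4 at day 45, 55.0 at day 55 and 59.3 at day 70 (chr7:136679416-136679475). The arrays of slide 2 lay below those of slide 1 with no overlap, at 2.38-fold, 2.05-fold and 1.91-fold below control. Col6a6, a long chain of type VI collagen, read 62.5 in control, 57.4 at day 21, 66.0 at day 35, 29.2 at day 45, 41.9 at day 55 and 34.4 at day 70. It was 2.14-fold below control at day 45 and again separated the slides. Against the mean of the other 2 arrays of slide 2, the day 45 differences were -0.27 for Col2a1 and -0.38 for Col6a6, and Col2a1 at day 55 was at 0.05.

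Col9a1 and Col19a1, FACIT genes whose probes lie 63.5 kb apart on chromosome 9 with 0 coding genes between them, gave the same separation below the threshold. Col9a1 read 224 in control, 198 at day 21, 190.4 at day 35, 121 at day 45, 119 at day 55 and 112 at day 70. Col19a1 read 392 in control, 351 at day 21, 345.5 at day 35, 239.5 at day 45, 238 at day 55 and 228 at day 70. Both lay on 2 levels, one per slide. A second Col9a1 probe that was above background on all arrays was not lower on slide 2 as a whole, at 31.3 in control, 35.6 at day 21, 32.8 at day 35, 23.9 at day 45, 36.0 at day 55 and 37.0 at day 70.

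Against day 35, the last array of slide 1, 3 of 26 collagens were lower by at least 2-fold at day 45 (Col2a1, Col6a6 and Col14a1) and 0 higher, beside 4.07% lower and 0.733% higher over all genes. At day 55, 2 of 29 were lower (Col6a3 and Col14a1) and 2 higher (Col6a1 and Col24a1), beside 3.13% and 0.814%. Of these, Col6a3 was above background only at day 35 and Col24a1 only at day 55. Each entered through its bright array and could be called in that direction only. At day 70, 1 of 30 was lower (Col14a1) and 0 higher, beside 4.77% and 0.786%. Col14a1 was thus lower than at day 35 on all 3 late arrays.

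Over the 25 collagen genes above background on all arrays, 7 had the 3 late arrays all below control and day 35, namely Col1a1, Col2a1, Col3a1, Col6a6, Col9a1, Col14a1 and Col19a1. Over all 12564 such genes the share was 17.6%. For Col3a1 the gap was only 0.001 on the log2 scale, with 137 at both day 35 and day 55. The dimmer Col9a1 probe that was above background on all arrays did not have this order. The helix probe of Col4a1 did, while the brighter Col4a1 probe did not. Only Col7a1 and Col15a1 had all 3 late arrays above control and day 35, beside 8.06% of all genes. Day 21 was the highest of the 6 arrays for 10 of the 25 (24.2% of all genes), and the lowest for 2, Col9a2 and Col27a1 (31.3% of all genes).

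**Figure D4:**
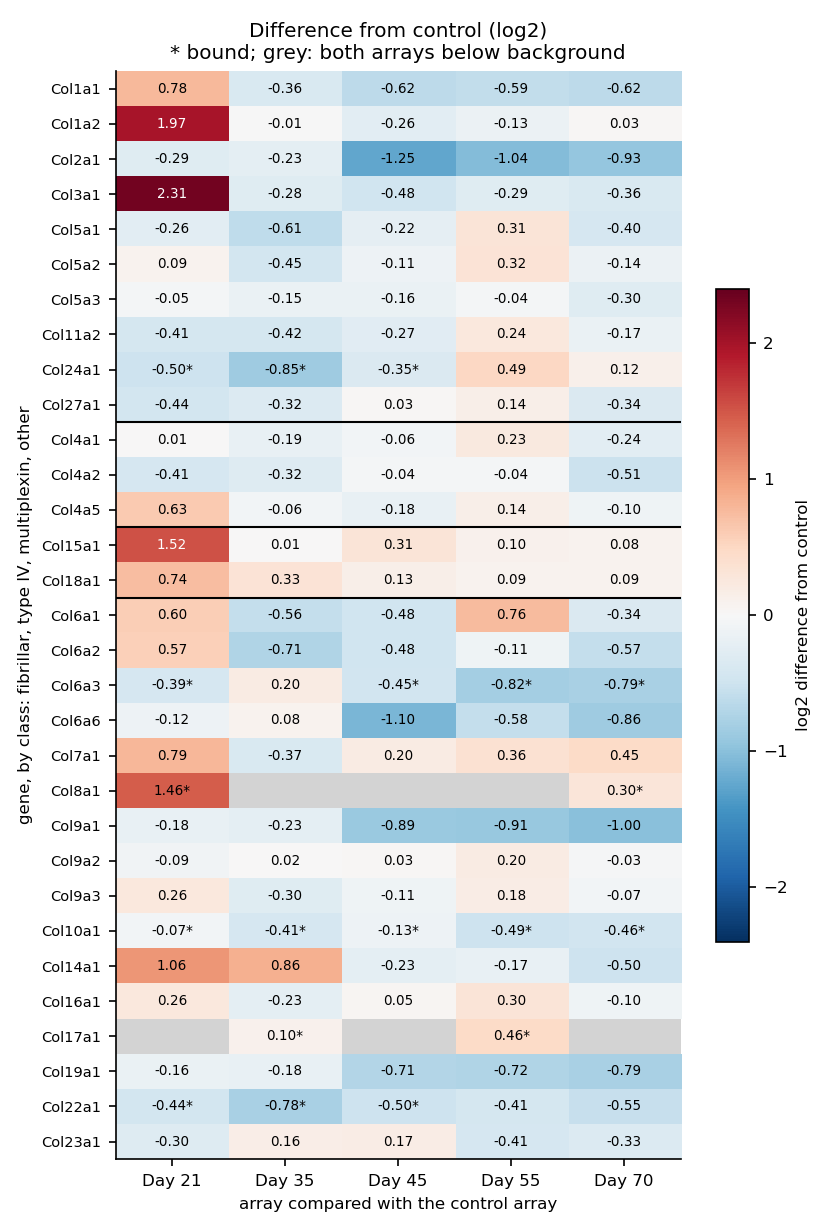
Log2 difference of each measured collagen gene from the control array at each day, by class, with bounds starred and comparisons below background in grey. Red cells at day 21 mark Col1a2 (1.97), Col3a1 (2.31), Col15a1 (1.52), Col8a1 (at least 1.46) and Col14a1 (1.06), and the darkest blue cell is Col2a1 at day 45 (-1.25).

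Within slide 2, where the slide is shared, day 55 stood above its neighbours. It was the highest of the 3 late arrays for 16 of the 25 collagen genes, beside 40.2% of all genes, and for 7 of 9 fibrillar genes. Day 70 was the highest for 3 collagens, beside 31.7% of all genes. With the other scalings and background corrections tried, day 55 was highest for 14 to 19 of the 25, beside 33.9% to 44.4% of all genes. The 19 and the 44.4% both came with normexp. The median of day 55 minus the mean of days 45 and 70 was 0.21 over the collagens and 0.02 over all genes. With the same alternatives it was 0.11 to 0.18 over the collagens and -0.01 to 0.03 over all genes. The fibrillar genes Col5a1, Col11a2, Col5a2 and Col27a1 were at 0.62, 0.46, 0.45 and 0.30, and Col4a1, Col4a5 and Col4a2 at 0.38, 0.28 and 0.23. Col5a2, which controls fibril diameter with Col5a1, read 796.5 at day 45, 1077 at day 55 and 782 at day 70. The multiplexins did not follow, at -0.02 for Col18a1 and -0.09 for Col15a1.

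Col6a1 was the only collagen past 2-fold between arrays of slide 2. It read 161 at day 45, 379 at day 55 and 176 at day 70, so that day 55 was 2.36-fold above day 45 and day 70 was 2.15-fold below day 55. Over all genes, 0.921% were higher and 0.737% lower at day 55 than at day 45, and 0.899% were higher and 0.993% lower at day 70 than at day 55. Col6a2, its partner chain in the type VI monomer, read 557, 719 and 524 on the same arrays, a difference of 0.41 against the mean of days 45 and 70 beside 1.17 for Col6a1. Between day 45 and day 70, 0 of 27 collagens passed 2-fold, beside 1.01% of all genes higher and 0.962% lower.

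**Figure D5:**
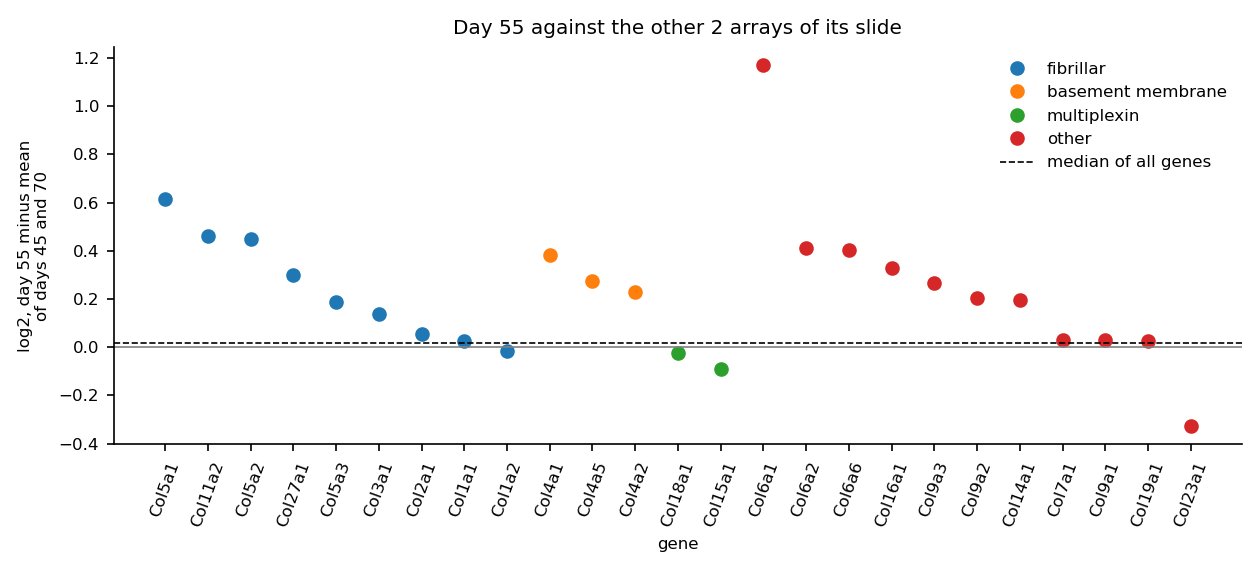
Log2 of day 55 minus the mean of days 45 and 70, all on slide 2, for the 25 collagen genes above background on all 6 arrays, coloured by class, with the median of all genes (0.02) dashed. Col6a1 stands highest at 1.17, and 21 of the 25 genes lie above 0, beside 6884 of 12564 over all genes. With the other scalings and background corrections tried, 16 to 22 of the 25 lie above 0, the 16 with quantile normalization.

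The promoters of the collagens were read for motifs known from this family. RefSeq entries of GRCr8 were found for 28 of the 35 genes, and the 250 bases before each annotated start were searched on both strands. CCAAT, the binding sequence of the factor CBF, was present in 6 of 28 collagen genes and in 34.0% of 33469 promoter entries in all. TATAAA was present in 4 of 28 genes and in 12.9% of entries, and GGGCGG, an Sp1 sequence, in 16 of 28 and in 30.5%. A gene counted if any of its entries held the motif, while the percentages count single entries. The gene counts and the percentages are thus not in the same unit. Col1a2, which stood far above control at day 21, held CCAAT, as ATTGG on the printed strand, and TATAAA. The 100 bases that begin 250 bases before its annotated start, chr4:33518307-33518406 in GRCr8, plus strand, are shown with both in capitals.

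Col1a2: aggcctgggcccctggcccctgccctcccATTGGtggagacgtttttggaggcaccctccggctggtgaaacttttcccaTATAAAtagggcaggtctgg

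Col1a1, Col3a1 and Col15a1, high on the same array, were not among the genes found with CCAAT or TATAAA in the 250 bases. Genes without an entry were not searched. Whether these motifs bear on the day 21 differences was not tested.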

How the data were processed

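The authors deposited 1 scanner file per array, made per the file headers by Feature Extraction 10.7.3.1 (array design 028282, positions in rn4), and a table of linear intensity values, for which no method is stated. The processed signal, an intensity in the green channel with local background subtracted per the file headers, was used, although the labels name Cy5. Per the labels' protocols, pooled RNA was amplified and labelled with an Agilent kit. With 1 array per group, no test was possible, and precision is limited by having 1 array each and, for dim probes, by their signal over background.

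Here, control and outlier spots (346 to 470 per array) were left out, log2 signals were scaled by each array's 75th percentile, and the brightest probe by mean stood for a gene. A gene entered a comparison if well above background on at least 1 of 2 arrays. On the dim side the higher of the array's lowest signal above background and the probe's own was used, which gives a bound ("at least"). Class medians include bounds. A difference of 2-fold was counted. Other genes were named through RefSeq (GRCr8) by accession (18068 probes), symbol (2483) or synonym (697), and 8909 probes stayed unnamed. The members and lists were chosen with earlier results of these data known. Genes past 2-fold measured on both arrays, and the chains of types I, III and IV, were given on every array, and Col6a1, Col6a2, Col7a1, Col8a1, Col9a1, Col11a2, Col18a1, Col19a1 and the partner genes with values were named after their values were seen. Python 3.11.15 (numpy 2.4.6, pandas 2.3.3) and, for normexp with offset 50, limma 3.58.1 in R 4.3.3 were used, and the counting was tested on simulated data. Some items of the lists and some sequences are not reported here. Alternatives changed the background correction, scaling, filter, probe, baseline, names, members and threshold.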

Additional observations from a re-analysis of the deposited data

How the results depend on the processing

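No paired analysis was possible because each group has 1 array. With 1 array per group, no replicate could be left out either. Col1a2, Col3a1 and Col15a1 were higher by at least 2-fold at day 21 under all 13 alternatives. Their log2 differences were 1.86 to 2.04, 1.96 to 2.59 and 1.13 to 1.61. Each had 1 probe, above background on all 6 arrays, so changes of filter, probe, names or members could not alter these values. Only the remaining alternatives, such as those of background correction, scaling and baseline, could move them. Col14a1 at day 21 stayed past 2-fold under 9 of 13 and turned to -0.12 with the mean of all probes. Col2a1 at day 55 turned to 0.053 against the mean of its slide. Day 55 was the highest of its slide for 14 to 19 of 25 collagens, beside 33.9% to 44.4% of all genes. Of 1876 values of single genes under an alternative, 447 moved by more than the technical SD and 2 changed sign from a call. Median scaling shifted the median of all genes by over 0.1, from -0.06 to 0.06 at day 45 and from -0.04 to 0.07 at day 70. Depth limits the dim genes: below a signal of 50 the technical SD between spots of the same array was 0.36. The cause of the moves listed here was not tested.

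Counts past 2-fold that moved were as follows. At day 21, 5 higher became 3 with normexp and 10 at 1.5-fold, and 0 lower became 2 with no filter and 1 with the reference's collagens added. At day 35, 0 higher became 1 with quantile normalization and 1 at 1.5-fold, and 0 lower became 1 with no filter, 1 against the slide's mean and 4 at 1.5-fold. At day 45, 2 lower became 0 with normexp, quantile normalization, the authors' table and both other baselines, 1 with median scaling and the mean of all probes, and 5 with no filter and at 1.5-fold. At day 55, 1 lower became 0 with normexp, median scaling, quantile normalization, the authors' table and both other baselines, 2 with no filter and 5 at 1.5-fold, and 0 higher became 2 with no filter and 1 against the slide's mean and at 1.5-fold. At day 70, 0 higher became 1 with quantile normalization, and 0 lower became 3 with no filter, 6 at 1.5-fold and 1 with the reference's collagens added.

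The fibrillar median at day 21 moved from -0.15 to -0.025 with normexp, -0.046 on genes above background on all arrays, 0.038 against the slide's mean and 0.13 against the other 5 arrays. At day 35 it moved from -0.34 to -0.25 with normexp, -0.23 in the authors' table and -0.49 against the slide. At day 45 it moved from -0.26 to -0.14 with median scaling and -0.16 against the other 5. At day 55 it moved from 0.05 to 0.14 with median scaling, -0.041 on genes above background throughout, 0.24 against the slide and 0.22 against the other 5. At day 70 it moved from -0.32 to -0.21 with median scaling, -0.19 with quantile normalization, -0.19 in the authors' table and -0.082 against the slide.

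The type IV median at day 21 moved from 0.01 to 0.63 with no filter and -0.20 with Col4a6 added, and at day 35 from -0.19 to -0.061 with no filter. At day 45 it moved from -0.06 to 0.064 with median scaling, 0.12 with quantile normalization, 0.10 in the authors' table and -0.18 with the mean of probes. At day 55 it moved from 0.14 to 0.24 with quantile normalization, -0.045 with the mean of probes and 0.28 against the slide, and at day 70 from -0.24 to -0.13 with median scaling and -0.38 with Col4a6 added.

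The median of the other types at day 21 moved from -0.07 to 0.079 with normexp, 0.081 with quantile normalization, 0.26 on genes above background throughout, 0.25 with no filter, 0.16 against the slide, 0.32 against the other 5 and 0.26 on the probe nearest the transcript's end. At day 45 it moved from -0.34 to -0.15 with normexp, -0.22 with median scaling, 0.052 with quantile normalization, -0.04 in the authors' table, -0.034 against the slide and -0.11 against the other 5. At day 55 it moved from -0.17 to 0.014 with quantile normalization, 0.01 in the authors' table and 0.20 against the slide. At day 70 it moved from -0.46 to -0.21 with normexp, -0.038 with quantile normalization, -0.049 in the authors' table, -0.30 with the mean of probes, -0.12 against the slide and -0.30 against the other 5. The added members and the probe nearest the transcript's end were chosen after seeing the data, as were the alternatives for day 55.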

Other observations

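Probes for 2 further collagen chains are on the arrays under locus names, so the name rule did not take them, and gene identifiers in RefSeq (GRCr8) name them Col4a6 and Col26a1. Both were above background on all 6 arrays. Col4a6, a chain of type IV collagen that pairs with the product of Col4a5, read 100.8 in control, 43.3 at day 21, 69.5 at day 35, 39.3 at day 45, 51.3 at day 55 and 45.8 at day 70. All 5 later arrays lay below control, by 2.33-fold at day 21, 1.45-fold at day 35, 2.56-fold at day 45, 1.96-fold at day 55 and 2.20-fold at day 70. Its course thus differed from that of Col4a5, which was highest at day 21, and this difference was not tested. Col26a1 read 79.3 in control, 81.2 at day 21 and 50.5 to 69.4 on the 4 later arrays, and stayed within 1.57-fold of control.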
